A study of Mus musculus with 4 samples.

Results

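The genes described here encode the precursors of the opioid and tachykinin neuropeptides and the receptors that bind them. The 10 genes chosen were the opioid precursors Penk, Pdyn and Pnoc, the tachykinin precursor Tac1, the opioid receptors Oprm1, Oprk1, Oprd1 and Oprl1, and the tachykinin receptors Tacr1 and Tacr3. Non-control probes were assigned to them through the RefSeq accession of the probe, which found 14 probes for 9 of the 10 genes, among 32235 named genes or accessions on the array. No probe was assigned to Pdyn in this way, and it was not analysed here. Gene expression was measured at postnatal day 14 (P14) in mouse tissue labelled thalamus and hypothalamus. The dark-reared group was 2 samples from pups whose dams had been moved into a light-proof cage shortly before birth, and which stayed there under dim red light until sampling. The control group was 2 samples from pups in standard cages on a daily light cycle. Strain, sex and the number of animals behind each sample are not given in the labels, which call the samples biological replicates. The p-values of single genes below set the group difference against the spread between samples of a group, moderated over all genes tested. One Agilent array was used per sample, in one colour (Cy3), and the study asked how this tissue responds when visual input is withheld.

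Opioid and tachykinin peptides are cut from larger precursor proteins inside dense-core vesicles and act on G protein-coupled receptors. Penk gives the enkephalins, which act on the delta and mu receptors encoded by Oprd1 and Oprm1, Pdyn gives the dynorphins, which prefer the kappa receptor encoded by Oprk1, and Pnoc gives nociceptin, the ligand of the receptor encoded by Oprl1. Tac1 gives substance P and neurokinin A, and substance P prefers the receptor encoded by Tacr1, whereas the Tacr3 receptor prefers neurokinin B, from Tac2. Opioid receptors signal through inhibitory Gi and Go proteins and tachykinin receptors through Gq and G11. Penk and Tac1 are expressed in several hypothalamic nuclei and very strongly in projection neurons of the striatum, a region next to the tissue sampled.

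The tachykinin side could be shown with its promoters, since Tac1, Tacr1 and Tacr3 each have an entry in the RefSeq promoter table of mouse assembly GRCm38.p6. The 250 bases upstream of the annotated start are printed 5′ to 3′ on the gene's strand, here the plus strand for all 3 genes, at chr6:7554811-7555060 for Tac1, chr6:82402225-82402474 for Tacr1 and chr3:134828757-134829006 for Tacr3. Capitals mark the half-site of the cAMP response element (CRE), TGACG on either strand, a sequence bound by factors of the CREB family.
Tac1: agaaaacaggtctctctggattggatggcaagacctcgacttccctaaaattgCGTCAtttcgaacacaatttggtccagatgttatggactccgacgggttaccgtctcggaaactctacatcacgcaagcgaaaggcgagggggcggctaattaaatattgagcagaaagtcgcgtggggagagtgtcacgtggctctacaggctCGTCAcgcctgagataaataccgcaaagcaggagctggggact
Tacr1: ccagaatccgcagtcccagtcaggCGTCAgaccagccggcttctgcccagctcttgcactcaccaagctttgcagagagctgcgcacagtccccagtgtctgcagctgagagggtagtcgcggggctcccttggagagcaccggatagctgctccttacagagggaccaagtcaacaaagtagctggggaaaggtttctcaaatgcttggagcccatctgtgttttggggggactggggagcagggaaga
Tacr3: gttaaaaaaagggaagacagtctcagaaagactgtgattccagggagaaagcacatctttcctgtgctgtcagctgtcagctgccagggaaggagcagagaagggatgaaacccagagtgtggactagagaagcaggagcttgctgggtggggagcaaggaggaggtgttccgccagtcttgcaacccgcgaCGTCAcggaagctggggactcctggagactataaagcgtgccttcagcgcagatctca
The half-site began 197 and 43 bases upstream of the start in Tac1, 226 in Tacr1 and 58 in Tacr3. It occurred in 17.8% of all 32851 promoter windows of this length. Across the 12 promoter entries of 7 of the 10 genes it was present in 3, those printed. The full palindromic CRE, TGACGTCA, which contains the half-site on both strands, occurred in 0 of the 12 entries and in 1.55% of all windows. The AP-1 sequence TGANTCA occurred in 0 of the 12 entries and in 6.75% of all windows. A match is a description of these letters and not of binding.

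Values below are log2 signals of a probe relative to that array's 75th percentile, so 0 is a signal at that percentile and 1 unit is a doubling. Signals of different probes are not compared. Of 41174 probes, 70.6% and 70.9% were called well above background in dark-reared 1 and 2, and 73.3% and 65.9% in control 1 and 2, with 0 saturated spots. Markers of the labelled regions were present in unequal amounts. Of 13 hypothalamic markers 8 passed the detection filter, with summed signals of 3.33 and 30.4 times the array's 75th percentile in dark-reared 1 and 2, and 51.1 and 16.3 times in control 1 and 2. The transcription factor genes Sim1 and Otp were well above background on 0 of 4 arrays. All 11 thalamic markers passed, with summed signals of 9.24 and 33.9 in the dark-reared samples and 58.2 and 15.4 in the controls. All 10 markers of striatal projection neurons passed, with summed signals of 171.0 and 46.6 in the dark-reared samples and 58.5 and 132.8 in the controls. The part of this makeup in the results below was not tested. In RNA from whole tissue, fewer cells of a type and less RNA per cell cannot be told apart. Xist, from the inactive X chromosome, was well above background in dark-reared 1 and control 1 and not in the other samples. The brighter probe of the Y-linked Ddx3y had log2 values of -0.32 and 1.07 in dark-reared 1 and 2, and -6.54 and 1.18 in control 1 and 2. It was well above background on 3 arrays. The second Ddx3y probe, at -5.89 and -3.91 in the dark-reared samples and -7.39 and -3.69 in the controls, was so on 2.

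The 8 opioid and tachykinin genes that could be tested did not separate dark-reared from control mice. After Benjamini-Hochberg adjustment over all 21426 genes in the limma fit, 0 of the 8 passed the threshold of 0.05, as did 0% of all genes. An unadjusted p under 0.05 was found for 0 of the 8, against 1.25% of all genes. The dark-reared and control samples overlapped for all 8 genes, as they did on all 14 probes, where 19.1% of all genes tested had groups without overlap. Means were higher in the dark for 3 genes and lower for 5, where 48.1% of all genes tested had a higher mean and 51.9% a lower one. The median of the 8 log2 differences was -0.07, against -0.01 over all genes. The smallest p of an exact permutation test, two-sided, is 0.333 for groups of this size. Oprd1, the delta receptor gene, was not tested because its only probe was well above background on 0 of 4 arrays.

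The genes varied more between arrays of the same group than between groups. The median range over the 4 arrays was 1.2 log2 units for the 8 genes and 0.42 for all genes tested, and the median within-group standard deviation was 0.66 against 0.20. The widest were the precursor genes, with ranges of 2.14 for Pnoc, 1.5 for Penk and 1.28 for Tac1, together with 1.32 for Oprl1. A range at least as wide was found for 3.0% of all genes tested in the case of Pnoc, 7.24% for Penk, 9.5% for Oprl1 and 10.1% for Tac1. Oprk1 was the least variable, with a range of 0.56 that 37.0% of genes reached.

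**Figure D1:**
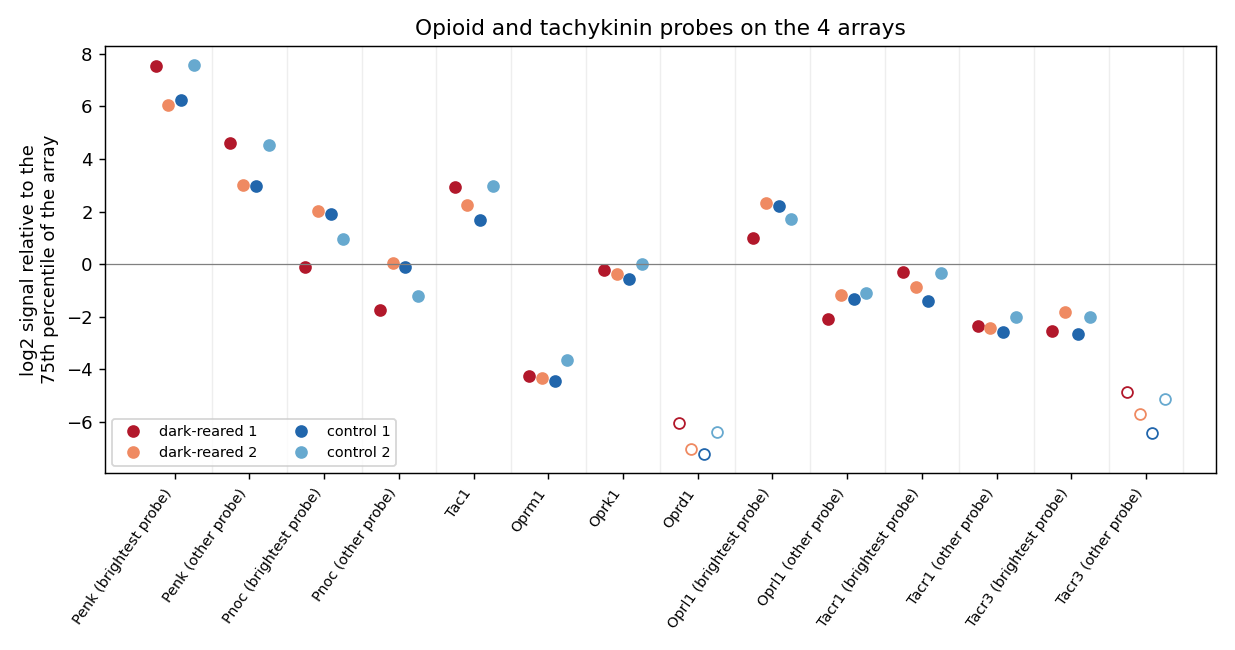
Log2 signal relative to the array's 75th percentile for each of the 14 probes (x axis), with 1 point per array: dark-reared 1 and 2 in red and orange, control 1 and 2 in dark and light blue. Filled points are probes well above background on all 4 arrays and open points are the 2 probes well above background on none. Points of both groups are interleaved for every probe, and dark-reared 1 is high for Penk and lowest for Pnoc.

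Penk, the enkephalin precursor gene (NM_001002927), gave log2 values of 7.55 and 6.06 in dark-reared 1 and 2, against 6.26 and 7.56 in control 1 and 2. Each group thus held 1 high and 1 low sample, with the lowest of the 4 values in dark-reared 2 and the highest in control 2. Within dark-reared mice the samples differed 2.80-fold and within controls 2.47-fold, whereas the group means differed 1.08-fold. The means were 6.80 ± 1.05 in dark-reared mice and 6.91 ± 0.92 in controls (SD, n = 2 each). In limma the groups differed by -0.11 (standard error 0.72, 95% interval -2.11 to 1.89, unadjusted p = 0.889, adjusted p = 1.00). The second Penk probe had 4.63 and 3.03 in dark-reared 1 and 2, and 2.99 and 4.51 in control 1 and 2. It split the samples in the same way and gave a mean difference of 0.07, of the opposite sign to the brighter probe. For the brighter probe the difference turned to 0.64 without dark-reared 2 and to 0.55 without control 2. The samples with the number 2 shared a slide, on which Penk was 2.83-fold lower in the dark-reared sample (log2 difference -1.5), with 1 sample a side and no test.

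Pnoc, the nociceptin precursor gene (NM_010932), ran the other way over the arrays. Its log2 values were -0.12 in dark-reared 1 and 2.02 in dark-reared 2, against 1.92 in control 1 and 0.96 in control 2. Dark-reared 1 was lowest and dark-reared 2 highest, so both controls lay between the dark-reared samples, which differed 4.40-fold. The means were 0.95 ± 1.51 in dark-reared mice and 1.44 ± 0.68 in controls (SD, n = 2 each). The groups differed by -0.49 (standard error 0.85, 95% interval -2.84 to 1.87, limma adjusted p = 1.00). The second probe, at -1.74 and 0.05 in the dark-reared samples and -0.11 and -1.20 in the controls, had the same order of arrays and a difference of -0.19. Within the shared slide Pnoc was 2.09-fold higher in the dark-reared sample, and without dark-reared 1 the difference became 0.58.

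Tac1, the precursor gene of substance P and neurokinin A (NM_009311), had log2 values of 2.95 and 2.27 in dark-reared 1 and 2, against 1.69 and 2.97 in control 1 and 2. The controls lay at both ends, with control 1 lowest and control 2 highest, and they differed 2.42-fold. The means were 2.61 ± 0.48 in dark-reared mice and 2.33 ± 0.90 in controls (SD, n = 2 each). The groups differed by 0.27 (standard error 0.53, 95% interval -1.21 to 1.76, limma adjusted p = 1.00). Within the shared slide it was 1.63-fold lower in the dark-reared sample. The positive sign of the mean rested on control 1 and dark-reared 1: the difference turned to -0.37 without control 1 and to -0.07 without dark-reared 1.

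Among the opioid receptor genes, Oprm1, the mu receptor gene (NM_001039652), was near the detection limit and yet well above background on all 4 arrays. Its log2 values were -4.26 and -4.34 in dark-reared 1 and 2, against -4.47 and -3.66 in control 1 and 2. The dark-reared samples lay between the controls, and control 2 alone stood higher. The groups differed by -0.24 (standard error 0.32, 95% interval -1.14 to 0.65, limma adjusted p = 1.00), and by 0.16 without control 2. The lowest signal called well above background was also highest on control 2, at a log2 value of -4.45, against -5.15 and -5.05 in dark-reared 1 and 2 and -5.20 in control 1.

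Oprk1, the kappa receptor gene (NM_011011), was the steadiest of the genes tested. It had log2 values of -0.22 and -0.39 in dark-reared 1 and 2, against -0.55 and 0.00 in control 1 and 2. Its means were -0.31 ± 0.12 in dark-reared mice and -0.28 ± 0.39 in controls (SD, n = 2 each). The difference of -0.03 had the smallest standard error of the 8 genes, 0.25, and a 95% interval of -0.73 to 0.66. An interval of this width does not show equal expression, and the sign turned without dark-reared 2 (0.05) and without control 2 (0.25).

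Oprd1 (NM_013622) had log2 values of -6.06 and -7.02 in dark-reared 1 and 2, against -7.23 and -6.39 in control 1 and 2, all not well above background, and these values have no order. Delta receptor transcript was thus not detectable with this probe, while Penk, whose enkephalins are its ligands, was well above background on all 4 arrays.

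Oprl1, the nociceptin receptor gene (NM_011012), had log2 values of 0.99 and 2.31 in dark-reared 1 and 2, against 2.21 and 1.71 in control 1 and 2. For this brighter probe the order of the arrays was that of Pnoc, its ligand's gene, with dark-reared 1 lowest and dark-reared 2 highest. The means were 1.65 ± 0.93 in dark-reared mice and 1.96 ± 0.35 in controls (SD, n = 2 each). The groups differed by -0.31 (standard error 0.52, 95% interval -1.76 to 1.14, limma adjusted p = 1.00). Its second probe had -2.09 and -1.19 in the dark-reared samples and -1.32 and -1.09 in the controls, a difference of -0.43. It was again lowest in dark-reared 1 but highest in control 2, so it did not share the order of Pnoc. Within the shared slide the difference was 0.60 for the brighter probe and -0.09 for the second. Without dark-reared 1 the difference of the brighter probe was 0.35.

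Of the tachykinin receptor genes, Tacr1, the substance P receptor gene (NM_009313), had log2 values of -0.29 and -0.85 in dark-reared 1 and 2, against -1.41 and -0.33 in control 1 and 2. Control 1 was lowest, as for Tac1, Oprm1, Oprk1 and Tacr3, and the remaining samples differed by less than the controls did. The difference of 0.29 (standard error 0.46, 95% interval -0.98 to 1.56, limma adjusted p = 1.00) turned to -0.25 without control 1. The second probe gave -2.37 and -2.45 in the dark-reared samples and -2.58 and -2.0 in the controls, a difference of -0.12, so the probes disagreed in sign.

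Tacr3, the neurokinin B receptor gene (NM_021382), had log2 values of -2.53 and -1.82 in dark-reared 1 and 2, against -2.64 and -2.0 in control 1 and 2. Here both replicate 2 samples, which shared the slide, stood above both replicate 1 samples. The replicate 2 samples were also those in which Xist was not well above background. Slide and Xist signal cannot be told apart in this split. The groups differed by 0.15 (standard error 0.37, 95% interval -0.88 to 1.17, limma adjusted p = 1.00). It was 0.18 within the shared slide, and the sign turned without dark-reared 2 (-0.21) and without control 1 (-0.18). The second Tacr3 probe was well above background on 0 of 4 arrays.

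**Figure D2:**
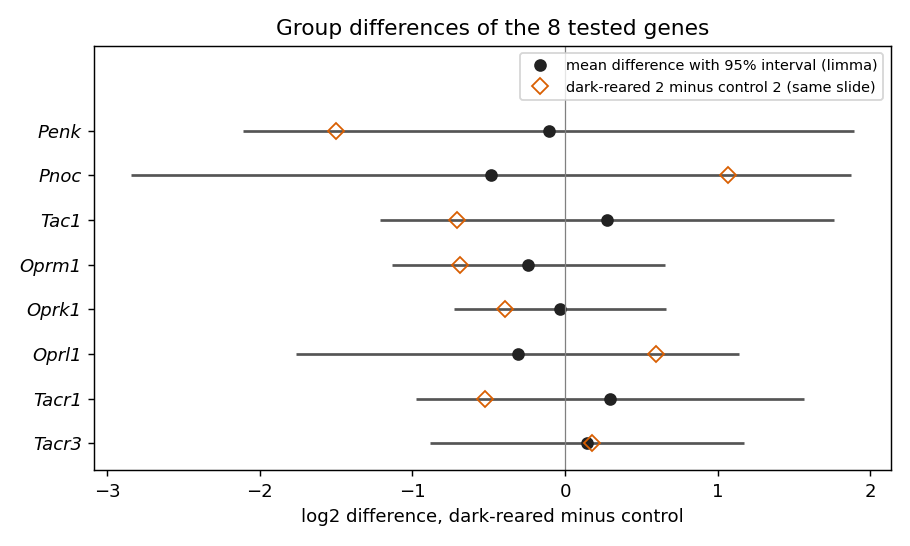
Log2 difference, dark-reared minus control, for the 8 tested genes: black points are mean differences of 2 against 2 samples with 95% limma intervals, and open diamonds are dark-reared 2 minus control 2, the samples on 1 slide. Every interval spans 0, and for Pnoc, Tac1, Oprl1 and Tacr1 the diamond lies on the other side of 0 from the mean.

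Levels of several of the genes moved with region markers over the arrays. Penk was high in dark-reared 1 and control 2 and low in dark-reared 2 and control 1, and so were the striatal markers. Of the 10 striatal markers 9 had their highest value in dark-reared 1 and 1 in control 2, while 9 had their lowest in dark-reared 2 and 1 in control 1. Adora2a, the adenosine receptor gene of enkephalin-expressing striatal neurons, had log2 values of 3.87 and 2.06 in dark-reared 1 and 2, against 2.31 and 3.62 in control 1 and 2. Drd1, the dopamine receptor gene of striatal neurons that express Tac1, had 2.73 and 1.35 in the dark-reared samples and 1.17 and 2.54 in the controls. By group mean 6 of the 10 were higher in dark-reared mice and 4 lower, with a median difference of 0.01, and their median range over arrays was 1.88. Within the shared slide all 10 were lower in the dark-reared sample. Their part in the Penk and Tac1 values was not tested.

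Pnoc and Oprl1 were lowest in dark-reared 1, where thalamic and hypothalamic markers were also low. Of 11 thalamic markers 8 were lowest in dark-reared 1 and 8 were highest in control 1, and by mean all 11 were lower in dark-reared mice (median log2 difference -0.62, 0 passing the adjusted limma threshold), where 51.9% of all genes tested were lower. Within the shared slide 9 of the 11 were higher in the dark-reared sample, so the direction turned there. Slc17a6, the vesicular glutamate transporter gene of thalamic and many hypothalamic neurons, had log2 values of -1.0 and 3.43 in dark-reared 1 and 2, against 3.89 and 1.64 in control 1 and 2. Of the 8 hypothalamic markers tested, 6 were lowest in dark-reared 1 and 7 highest in control 1. By mean 7 of the 8 were lower in dark-reared mice (median log2 difference -1.35, 0 passing the adjusted limma threshold). Within the shared slide 7 were higher in the dark-reared sample. The exception there was Irs4, at -2.45 and -2.94 in dark-reared 1 and 2 against -1.84 and -1.94 in control 1 and 2. Its groups did not overlap, as for 19.1% of all genes tested. Pnoc and the brighter Oprl1 probe were highest in dark-reared 2, as were 3 of the thalamic markers and 1 of the hypothalamic markers. Of 8 habenular markers 3 passed the filter, with summed signals of 0.72 and 1.19 in dark-reared 1 and 2 and 0.87 and 0.84 in control 1 and 2, and the defining markers Gpr151 and Chrnb4 were well above background on 0 of 4 arrays. Of the remaining marker lists, the 10 cortical and hippocampal markers had summed signals of 7.34 and 4.96 in the dark-reared samples and 5.95 and 4.2 in the controls, with 3 of the 10 at least 2-fold higher in dark-reared mice without overlap (1.2% of all genes tested were that far apart in either direction). By the same rule on measured signals 1 of the 11 thalamic markers, Ramp3, and 1 of the 3 pituitary markers tested, Gh, were lower in dark-reared mice. The 3 of 6 pituitary markers that passed the filter had summed signals of 0.68 and 0.79 in the dark-reared samples against 0.67 and 1.0 in the controls. The part of these regions in the Pnoc and Oprl1 values was not tested either.

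**Figure D3:**
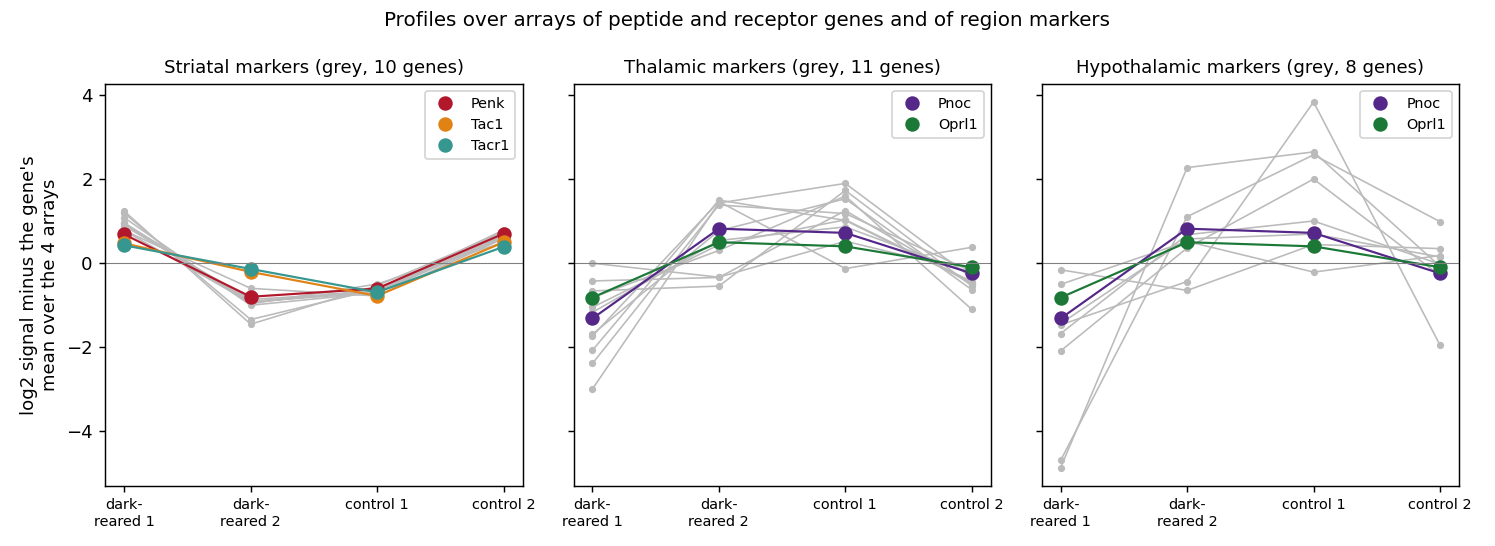
Log2 signal minus the gene's own mean over the 4 arrays (y axis), by array (x axis). Grey lines are the 10 striatal, 11 thalamic and 8 hypothalamic markers that were tested, and coloured lines are Penk, Tac1 and Tacr1 (left) and Pnoc and Oprl1 (middle and right). Penk, like the striatal lines, is above its mean in dark-reared 1 and control 2 and below it in dark-reared 2 and control 1, and Pnoc and Oprl1 share with most thalamic and hypothalamic lines the low value in dark-reared 1.

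The genes with the array profile most like each precursor gene were found by the root mean square distance between log2 values over the 4 arrays, each gene centred on its own mean, among 14327 named genes. Nearest to Penk were Slc35d3 (0.04 log2 units), Foxp1 (0.06), Tesc (0.09), Mhrt (0.09) and Fblim1 (0.09), where the median gene lay at 0.72. Nearest to Pnoc were Npy2r (0.03), Cbln2 (0.04), Sncg (0.06), Tmie (0.07) and Slc1a6 (0.07), with a median of 0.88. Nearest to Tac1 were Akap5 (0.04), Cpne5 (0.05), Nab2 (0.06), Syt6 (0.06) and Arl5c (0.07), with a median of 0.56. These distances rest on 4 arrays and describe likeness over them alone.

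Of 4 other genes of the families 1 could be tested. Pomc, the precursor gene of beta-endorphin, had log2 values of -0.02 and -0.18 in dark-reared 1 and 2, against 0.28 and 0.09 in control 1 and 2. Both dark-reared samples lay below both controls, as 9.58% of all genes tested did. The difference of -0.29 (standard error 0.16) did not pass in limma (unadjusted p = 0.156, adjusted p = 1.00), and it was -0.28 within the shared slide. Tac4, the hemokinin precursor gene, and Tacr2, the neurokinin A receptor gene, were well above background on 0 of 4 arrays, and Tac2, to which no probe was assigned, was not analysed here.

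Genes that make and break down the peptides had median ranges over the 4 arrays of 0.32 for processing and 0.41 for breakdown, against 1.2 for the opioid and tachykinin genes. Single genes among them ranged more widely, with 1.99 for Mme, 1.72 for Ace and 1.26 for Pcsk1. The peptidase genes Mme and Ace were named after their values were seen. Both were highest in dark-reared 1 and lowest in dark-reared 2. Of 8 genes of propeptide processing 0 passed the limma threshold, with 2 higher and 6 lower by mean and a median difference of -0.08. Pcsk1, a prohormone convertase gene, had the largest difference, with -2.24 and -1.20 in dark-reared 1 and 2 against -0.99 and -1.62 in control 1 and 2 (difference -0.42, standard error 0.46). Its lowest value was in dark-reared 1, as for Pnoc. Cpd (0.21), Ctsl (-0.13) and Pcsk1n (-0.12) followed in size of the log2 difference. Groups without overlap were found for 2 of the 8, Cpd and Scg5, against 19.1% of all genes tested. Scg5 was named after its values were seen, and had 3.59 and 3.61 in dark-reared 1 and 2 against 3.69 and 3.68 in control 1 and 2. Of 10 peptidase genes 0 passed and 0 had groups without overlap, with 4 higher and 6 lower and a median of -0.04. The largest differences were -0.37 for Ece2, an endothelin-converting enzyme gene, -0.20 for Lnpep, 0.06 for Anpep and -0.06 for Dpp3, an enkephalin-degrading dipeptidyl peptidase gene.

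Genes acting below the receptors gave no call either. Of 18 tested Gi and Go signalling genes 0 passed the limma threshold, 6 being higher and 12 lower by mean with a median of -0.04. Rgs4, a regulator that limits Gi and Gq signalling, had 4.25 and 1.87 in dark-reared 1 and 2 against 3.11 and 3.86 in control 1 and 2, which differ by -0.43 in their means (standard error 0.90). It was highest in dark-reared 1 and lowest in dark-reared 2, as most striatal markers were. The potassium channel gene Kcnj9 differed by -0.42 and the adenylyl cyclase gene Adcy8 by -0.33. Groups did not overlap for 2 of the 18, the receptor kinase gene Grk5, with -1.31 and -1.29 in dark-reared 1 and 2 against -1.68 and -1.55 in control 1 and 2 (difference 0.32, standard error 0.15, limma adjusted p = 1.00), and Rgs7, against 19.1% of all genes tested. The regulator gene Rgs7 was named after its values were seen, and had 2.15 and 2.21 in dark-reared 1 and 2 against 2.36 and 2.31 in control 1 and 2. Of 9 Gq signalling genes 0 passed, with 6 higher and 3 lower and a median of 0.18. The largest differences were -0.56 for the phospholipase gene Plcb4, 0.21 for the protein kinase gene Prkcb, 0.21 for Plcb3 and 0.19 for Gnaq, the gene of the Gq subunit. Gnaq was at 2.89 and 3.16 in dark-reared 1 and 2 and at 2.84 in both controls, and with Prkca, named after its values were seen, it made up the 2 of 9 genes whose groups did not overlap, against 19.1% of all genes tested.

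**Figure D4:**
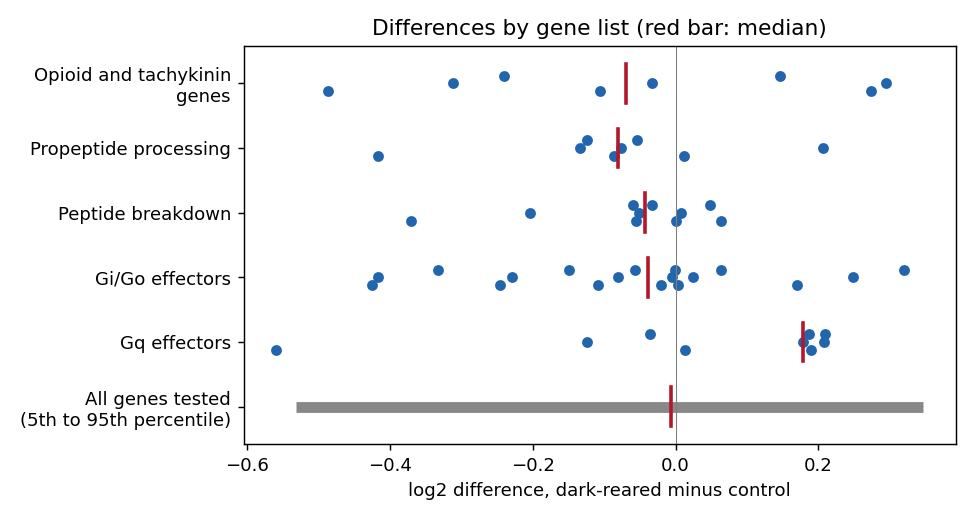
Log2 difference, dark-reared minus control, of each tested gene (blue points) by gene list, with the list's median as a red bar. The grey bar spans the 5th to 95th percentile of all 21426 genes tested, -0.53 to 0.35, and all listed genes but Plcb4 lie within it.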

How the data were processed

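RNA from 2 dark-reared and 2 control samples was measured on 1 Agilent array each. Per the file headers, the deposited intensity values come from version 10.7.3.1 of Agilent's Feature Extraction software, which the submitters' processing notes give as 10.7. Its processed signal is background-subtracted and detrended within an array and not scaled between arrays, and the flags for background, outliers and controls come from the same software. The authors also deposited log2 values, with a median of 6.84 on every array, whose normalization is not stated in the sources used here, and which served as an alternative. The array annotation refers to mm9, and probe positions are not given. Dark-reared 2 and control 2 shared a slide, and the remaining samples had a slide each.

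Control spots and outlier spots (79 to 103 an array) were left out, spots of a probe averaged, and the 75th percentile of each array (764 to 794) was subtracted after taking log2. RefSeq accessions named 26918 of 41174 probes. A probe was kept if the software called it well above background in both samples of at least 1 group (28444 probes), and the brightest probe stood for each gene, giving 21426 genes. The test was limma's moderated test (version 3.58.1, R 4.3.3), two-sided, with Benjamini-Hochberg adjustment across the genes and a threshold of 0.05. It was first run on simulated data with planted differences and independent noise, as a check of the code. How often planted differences were called with 2 samples a group is not given here. Alternatives were other normalizations, normexp on median signals (offset 50, outlying local backgrounds set to the array's median), the deposited values, other filters, the mean of a gene's probes, the replicate number as a block, the shared slide, and each array left out. The number of arrays and the signal over background limit the precision. Of the lists, every gene without group overlap and at least 2-fold apart and the 4 largest differences are named, and the 5 genes nearest in profile to each precursor. The genes and lists were chosen with earlier results of these data known.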

Additional observations from a re-analysis of the deposited data

How the results depend on the processing

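Under 8 other settings (median or quantile normalization, normexp, the authors' log2 values, no filter on dim probes, detection required on all 4 arrays, the mean of a gene's probes and the replicate block) 0 genes passed the adjusted threshold, as in the main setting and without any 1 array. Of 64 differences of the 8 opioid and tachykinin genes under these settings 1 changed sign, Oprk1 at 0.00035 with median normalization. Of the 17 further list genes recomputed Anpep did, at -0.020 with normexp. For these genes, dropping the filter, requiring all 4 arrays and the replicate block gave exactly the main differences, so no sign could turn there. The same probes were used, and the block is balanced. The mean of probes left Tac1, Oprm1, Oprk1 and Tacr3 unchanged, each with 1 passing probe. Scg5, Rgs7, Prkca, Mme, Ace, the markers and the genes nearest in profile were not recomputed under the alternatives. Genes at least 2-fold apart without overlap numbered 258 (92 higher, 166 lower), but 23 with normexp, 810 without the filter and 79 with the filter on all 4 arrays. Leaving out 1 array gave 529 to 885, since groups of 1 overlap less easily; a lone sample is assumed to vary like the other group.

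A fit with slide as a term has too few arrays for a test, so the slide was examined through the difference between dark-reared 2 and control 2, with no test. It reversed the sign of Pnoc (1.06), Tac1 (-0.71), Oprl1 (0.60), Tacr1 (-0.53), Pcsk1 (0.42), Ece2 (0.16), Anpep (-0.015), Dpp3 (0.00046), Kcnj9 (0.15), Adcy8 (0.83), Plcb4 (0.72) and Prkcb (-0.74). With each array left out in turn, the log2 difference ran from -0.85 to 0.64 for Penk, -1.55 to 0.58 for Pnoc, -0.37 to 0.91 for Tac1, -0.65 to 0.16 for Oprm1, -0.31 to 0.25 for Oprk1, -0.97 to 0.35 for Oprl1, -0.25 to 0.84 for Tacr1 and -0.21 to 0.50 for Tacr3. It ran from -0.94 to 0.11 for Pcsk1, -0.42 to 0.15 for Ctsl, -0.80 to 0.061 for Ece2, -0.51 to 0.10 for Lnpep, -0.028 to 0.15 for Anpep, -0.17 to 0.051 for Dpp3, -1.62 to 0.77 for Rgs4, -1.0 to 0.17 for Kcnj9, -1.0 to 0.33 for Adcy8, -1.27 to 0.15 for Plcb4 and -0.30 to 0.72 for Prkcb. Pcsk1n and Plcb3 kept their sign without any 1 array and within the shared slide. Pomc, Cpd, Grk5 and Gnaq did too, but this was fixed in advance, because their groups did not overlap. Within the shared slide the second probes of Penk (-1.49) and Pnoc (1.25) turned from the sign of their own mean difference. Those of Oprl1 (-0.09) and Tacr1 (-0.44) did not. The causes were not tested.

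The replicate number as a block called 0 genes (271 at an unadjusted p under 0.05, against 267 without the block) and left every difference as it was, for Penk -0.11. Deviations from the group means of same-numbered samples correlated at -0.16 across genes, and the crossed pairing, added after seeing the data, called 0 genes (433 at an unadjusted p under 0.05).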
